A study of Mus musculus with 96 samples.

Results

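A set of 8 genes of the MHC class II pathway was followed in 96 RNA-seq libraries of mouse forebrain, cerebellum, liver and kidney: H2-Aa, H2-Ab1, H2-Eb1, Cd74, H2-DMa, H2-DMb1, H2-DMb2 and Ciita. They are 8 of the 54833 features in the count table and were found by symbol. The genes were selected with 2 sets of values from these same libraries in view, namely the difference between sleep-deprived and control animals at each time in each organ, and the co-variation of liver and kidney libraries. Both are therefore given as descriptions: where calls on the first are counted, they stand beside the share of all genes called, and nothing is read from them. The levels in the 4 organs and the course over the day were not used to choose the genes, and those were tested.

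All animals were male wild-type C57BL/6 mice of 6 to 8 weeks with free access to food and water, housed on a light/dark cycle and, as the study states, sampled in constant darkness, with no transgene or drug in either arm. The sleep-deprived mice (SD) spent 10 h of their resting phase walking in a slowly turning drum, and the control mice (CON) were left undisturbed. Organs were then taken every 4 h at 6 circadian times, CT4, CT8, CT12, CT16, CT20 and CT24, with 2 replicates for each organ, arm and time, which makes 12 CON and 12 SD libraries per organ. SD animals were also made to walk, so that loss of sleep and forced locomotion cannot be told apart.

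MHC class II molecules carry peptides from engulfed material to the cell surface, where CD4+ T cells read them. In most tissues they are made by dendritic cells, macrophages and B cells, and interferon gamma can switch them on in other cells. H2-Aa, H2-Ab1 and H2-Eb1 encode chains of the classical molecules I-A and I-E. Cd74 is the invariant chain, which blocks the peptide groove until the molecule reaches the endosome, and H2-DMa with H2-DMb1 or H2-DMb2 forms the DM chaperone that exchanges the remnant of the invariant chain for a peptide. Ciita is the coactivator that switches the whole set on. It does not bind DNA itself and sits on a complex of RFX, CREB and NF-Y held at the X and Y boxes of class II promoters.

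In GRCm38 with GENCODE M21, the classical and DM genes lie within one stretch of chromosome 17. H2-DMa spans 34119541 to 34139101, H2-DMb2 34143307 to 34151555, H2-DMb1 34153072 to 34160230, H2-Ab1 34257689 to 34269419, H2-Aa 34282744 to 34287823 on the minus strand, and H2-Eb1 34305867 to 34316674. All 8 genes, with Cd74 and Ciita on other chromosomes, are protein-coding. H2-DMb1 and H2-DMb2 are close copies: their transcripts were identical at 96.0% of 1045 aligned bases with a longest shared run of 221 bases, more than the read length of 150 bases, so the split of reads between these 2 genes is uncertain.

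The promoters are shown because these genes moved together in the libraries. RefSeq windows on GRCm38.p6, from 250 bases before to 50 bases after a transcription start, were matched for 5 of the 8 genes (6 windows). The letters AACNGATG, taken as the core of the X box, and ATTGG, the core of the Y box, were searched on both strands, and the 2 motifs do not overlap in the stretches below. The X core stood in 2.32% and the Y core in 37.41% of 32851 windows. Capitals mark the 2 cores in stretches of 65 bases, printed 5′ to 3′ on the strand of the gene: H2-Aa from chr17:34287857-34287921 (minus strand), H2-Eb1 from chr17:34305758-34305822, H2-DMb1 from chr17:34153080-34153144 and H2-DMb2 from chr17:34145109-34145173 (plus strand).
H2-Aa: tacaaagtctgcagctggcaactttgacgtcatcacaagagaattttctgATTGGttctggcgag
H2-Eb1: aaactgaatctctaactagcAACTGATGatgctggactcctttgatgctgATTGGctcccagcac
H2-DMb1: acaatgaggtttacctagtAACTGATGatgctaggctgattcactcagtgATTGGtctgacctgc
H2-DMb2: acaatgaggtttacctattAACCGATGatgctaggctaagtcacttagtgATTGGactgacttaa

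The Y core was found in windows of all 5 genes and began 48, 59, 61 and 90 bases before the start of H2-Aa, H2-Eb1, H2-DMb1 and H2-DMb2. These starts are those of RefSeq. The GENCODE M21 spans of H2-DMb1 and H2-DMb2 begin farther upstream, at 34153072 and 34143307, so their printed stretches lie inside those spans. The X core was found in H2-Eb1, H2-DMb1 and H2-DMb2, with 22, 23 and 23 bases between X and Y. A spacing of 10 to 30 bases, chosen after these windows had been seen, was met by 7 windows (0.02131% of all), those of H2-Eb1, H2-DMb1, H2-DMb2, H2-Eb2, BC051142, Gm35697 and H2-M10.4. The letters of the gamma-activated site, TTCNNNGAA, stood in 8.298% of all windows and, among the 5 genes, in the window of H2-DMb2. A match is a description of letters and not of bound protein.

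The libraries held 24.8 to 58.5 M counts. Markers of each organ were highest in their own organ for 6 of 6 genes in all 4 organs. In the kidney, the sample titles and the characteristics named different times in 20 of 24 libraries and different conditions in 10, and the titles were used. By title, the clock gene Arntl in CON kidney averaged 49.2 CPM (counts-per-million, the count over the library total) at CT4, 3.66 at CT16 and 28.3 at CT24, against 41.3, 4.87 and 27.3 in CON liver. That comparison bears on the times and not on the conditions. The cerebellum CON library of CT8 replicate 1 stood apart, with 3.60% of its counts in genes annotated as antisense against 0.619% to 1.17% in the other 95 libraries.

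In kidney and liver, all 8 genes had a lower mean in SD than in CON at 6 of 6 times. The average over times was lower by 0.44 to 2.16 on the log2 scale in the kidney (median -0.93) and by 0.47 to 1.44 in the liver (median -1.17), against a median over all tested genes of 0.01 in both organs. In the forebrain 4 of 8 values lay below 0 and in the cerebellum 6 of 6. In whole-organ RNA, fewer class II-bearing cells and less class II RNA per cell cannot be told apart.

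Among the classical chains, H2-Ab1 had the largest kidney difference of the 3. Its kidney level was 103 to 435 CPM in CON (median 177) and 49.5 to 117 in SD (median 70.7), a log2 fold change of -1.44 (SE 0.17). H2-Aa in the kidney ranged from 82.0 to 258 CPM in CON (median 108) and from 49.2 to 82.9 in SD (median 67.2), a log2 fold change of -0.95 (SE 0.14). The highest SD library stood above 1 CON library of CT4 for H2-Aa, and 11 of 12 CON kidneys lay above all SD kidneys. H2-Eb1 in the kidney ranged from 73.8 to 171 CPM in CON (median 104) and from 50.8 to 72.0 in SD (median 64.5), with a log2 fold change of -0.78 (SE 0.10). Its 2 arms did not overlap at any time.

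In the liver the 3 chains moved almost alike. H2-Aa ranged from 87.8 to 225 CPM in CON (median 124) and from 22.3 to 76.1 in SD (median 49.7), a log2 fold change of -1.35 (SE 0.14). H2-Ab1 ranged from 73.7 to 210 CPM in CON (median 105) and from 16.6 to 67.8 in SD (median 42.5), a log2 fold change of -1.39 (SE 0.15). H2-Eb1 ranged from 71.0 to 188 CPM in CON (median 104) and from 18.7 to 60.1 in SD (median 38.7), a log2 fold change of -1.44 (SE 0.15). For each of the 3, all 12 SD livers were below all 12 CON livers.

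Cd74 lies on chromosome 18 from 60803848 to 60812652. It ranged from 202 to 895 CPM in CON kidneys (median 318) and from 108 to 248 in SD kidneys (median 157). In the liver it ranged from 172 to 479 CPM in CON (median 228) and from 35.5 to 163 in SD (median 101). The arms overlapped in the kidney, where both SD libraries of CT12 stood above the lowest CON library, one of CT4, and did not overlap in the liver. The log2 fold changes were -1.29 (SE 0.17) in the kidney and -1.28 (SE 0.16) in the liver.

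Of the DM chaperone genes, H2-DMa moved least. Its kidney level was 37.2 ± 7.25 CPM in CON and 27.7 ± 2.84 in SD (mean ± SD of libraries, n = 12 each), and its liver level 28.3 ± 4.75 and 18.8 ± 3.17, with log2 fold changes of -0.44 (SE 0.08) and -0.47 (SE 0.08). H2-DMb1 averaged 4.97 ± 1.38 CPM over CON kidneys and 2.70 ± 0.560 over SD kidneys (n = 12 each), and 1.91 ± 0.559 and 0.963 ± 0.250 in livers, with log2 fold changes of -0.89 (SE 0.13) and -0.85 (SE 0.14). In each of these comparisons some SD libraries lay within the range of CON.

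H2-DMb2 had the largest kidney fold change of the 8 genes. It ran from 2.42 to 24.9 CPM in CON kidneys (median 6.53) and from 0.851 to 2.55 in SD kidneys (median 1.66), with a log2 fold change of -2.16 (SE 0.29). In the liver it ran from 1.15 to 2.94 CPM in CON (median 1.83) and from 0.472 to 1.74 in SD (median 0.925), with a log2 fold change of -0.74 (SE 0.15). The ratio of H2-DMb2 to H2-DMb1 counts had a median of 1.30 in CON kidneys, 0.594 in SD kidneys, 1.04 in CON livers and 0.993 in SD livers, so the 2 copies did not keep the same ratio in the kidney. How reads shared by the copies were counted can change this ratio.

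Ciita, which acts upstream of the other 7 genes and lies on chromosome 16 from 10480059 to 10528418, ranged from 12.6 to 40.4 CPM in CON kidneys (median 19.9) and from 7.92 to 13.96 in SD kidneys (median 11.9), a log2 fold change of -0.90 (SE 0.13). In livers it ranged from 11.1 to 29.0 CPM in CON (median 19.4) and from 5.50 to 12.5 in SD (median 8.29), a log2 fold change of -1.06 (SE 0.12). The highest SD library lay above the lowest CON library in both organs.

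Counted by time, both SD libraries were below both CON libraries in 45 of 48 combinations of gene and time in the kidney and in 48 of 48 in the liver. The kidney exceptions were H2-DMa, H2-DMb1 and Ciita at CT8, where the CON replicates lay far apart. The share of all tested genes that met this rule of 2 against 2 libraries was not counted, so nothing is read from these counts. The arms did not overlap at all over 12 against 12 libraries for 1 of 8 genes in the kidney (H2-Eb1) and for 4 of 8 in the liver (H2-Aa, H2-Ab1, H2-Eb1 and Cd74). Over all tested genes, all 12 SD libraries were below all 12 CON libraries for 0.0465% in the kidney and 0.335% in the liver. In edgeR's quasi-likelihood fit, with a threshold of adjusted p under 0.05, 2.12% of all tested kidney genes and 8.8% of all tested liver genes were called lower in SD, the 8 genes among them. As the genes were selected on this contrast, nothing is read from that. In the liver that share depends on scaling: 48.3% of called genes were lower in SD, and 91.3% with library sizes alone, which moved the median of all genes from 0.01 to -0.13.

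As a description, the fitted size of the difference was not the same at each time. At CT8 the log2 fold changes in the kidney were -3.58 (SE 0.67) for H2-DMb2, -2.34 (SE 0.38) for H2-Ab1 and -2.27 (SE 0.36) for Cd74. At CT12 these 3 values were -1.53 (SE 0.62), -0.83 (SE 0.36) and -0.77 (SE 0.35). In the liver, H2-Eb1 was lower by 1.897 (SE 0.37) at CT8 and by 0.91 (SE 0.36) at CT12, and Cd74 by 1.74 (SE 0.39) and 0.75 (SE 0.38). Differences between times of these folds were not tested. The CT8 values of the kidney rest on 2 CON libraries that differed widely: Cd74 was at 313 and 895 CPM, H2-Ab1 at 138 and 435, and H2-DMb2 at 3.79 and 24.9. The SD kidneys of CT8 were at 110 and 148 CPM for Cd74. The same limit holds for the liver values of CT8. Its CON libraries were at 71.0 and 188 CPM for H2-Eb1 and at 177 and 479 for Cd74.

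**Figure D1:**
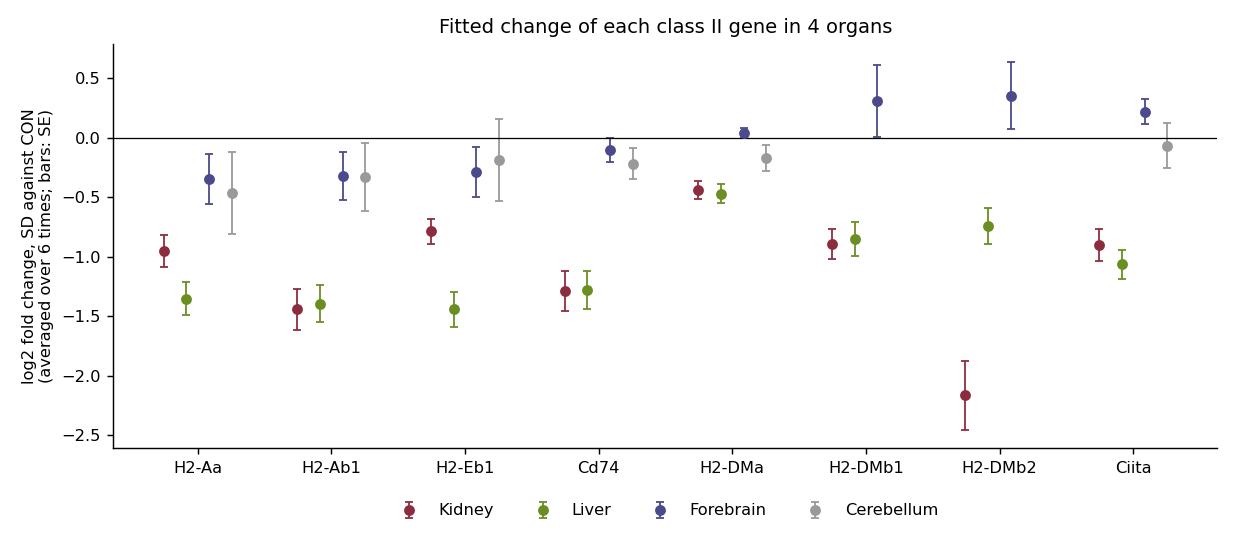
Log2 fold change of SD against CON averaged over 6 times for each gene in each organ, with bars of 1 standard error from edgeR. All 8 values lie below 0 in kidney and liver, from -0.44 to -2.16, and values lie on both sides of 0 in the forebrain.

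The kidney values carry the doubt about its labels. In 14 kidney libraries the title and the characteristics named the same condition, 12 CON and 2 SD, and the 2 SD libraries were those of CT24. The other 10 were titled SD and given as control in the characteristics. The study describes 2 replicates for each arm and time, which the titles give and the characteristics do not. At CT24 both SD kidneys were below both CON kidneys for 8 of 8 genes, and the share of all tested genes that met this was not counted. In an edgeR fit on these 14 libraries, which was added after the data had been seen, the log2 fold changes ran from -0.47 for H2-DMa to -1.80 for H2-DMb2, all below 0, with 0 of the 8 and 142 of 20932 genes called. Liver, forebrain and cerebellum had no such conflict.

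The class II RNA of the brain regions was low, and the 2 arms overlapped for each gene. In the forebrain, Cd74 ranged from 3.41 to 9.32 CPM in CON (median 4.48) and from 3.27 to 6.50 in SD (median 4.40), and H2-Aa had a median of 0.712 CPM in CON and 0.629 in SD. The 8 log2 fold changes ran from -0.35 for H2-Aa to 0.36 for H2-DMb2, 4 below 0 and 4 above. In the cerebellum, H2-DMb1 and H2-DMb2 had too few counts to be tested and the other 6 values ran from -0.46 for H2-Aa to -0.07 for Ciita. By edgeR 0 of 8 genes in the forebrain and 0 of 6 in the cerebellum were past the threshold, with 1 and 0 at an unadjusted p under 0.05 and 0 and 0 by DESeq2. Over all tested genes 0.0303% were called lower in SD in the forebrain and 0% in the cerebellum. At an unadjusted p under 0.05 there were 1479 and 757 genes. Both SD libraries were below both CON libraries in 10 of 48 combinations in the forebrain and 9 of 48 in the cerebellum. Here too the share of all tested genes that met this rule was not counted. The forebrain standard errors of H2-Aa and H2-Ab1 were 0.21 and 0.20.

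The 4 organs were next compared in CON libraries, a comparison the selection did not use. Summed over the 8 genes, CON kidneys held 513 to 1869 CPM (median 780), CON livers 451 to 1169 (median 621), CON forebrains 33.4 to 48.2 (median 39.7) and CON cerebella 31.5 to 83.8 (median 41.6). Most of the brain sums was H2-DMa, which averaged 30.2 CPM in CON forebrain and 31.8 in CON cerebellum. The cerebellar sum of 83.8 was that of the CT8 CON replicate 1 library that stood apart, where H2-DMa was at 64.4. Per length, in TPM (transcripts-per-million, which also divides by exon length) of CON liver, the levels ordered as Cd74 (434 ± 157), H2-Eb1 (159 ± 51.8), H2-Ab1 (128 ± 43.2), H2-Aa (98.5 ± 30.2), H2-DMa (22.9 ± 3.63), Ciita (5.60 ± 1.48), H2-DMb1 (3.19 ± 0.947) and H2-DMb2 (2.96 ± 0.860), each as mean ± SD with n = 12. The neighbouring pairs H2-Eb1 and H2-Ab1, H2-Ab1 and H2-Aa, and H2-DMb1 and H2-DMb2 differed by less than their spread. That spread is between libraries in which these genes were measured together, and their order within single libraries was not tested.

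Between liver and forebrain all 8 genes were past the threshold as higher in liver, where 85.9% of all tested genes differed in either direction, 55.5% of them lower in liver. H2-Ab1 was higher by 7.79 (SE 0.25, adjusted p = 4.45e-31) and H2-Aa by 7.68 (SE 0.27, adjusted p = 5.37e-29) on the log2 scale in edgeR. Cd74 was higher by 6.27 (SE 0.18), H2-Eb1 by 7.38 (SE 0.25), H2-DMb1 by 4.17 (SE 0.28), H2-DMb2 by 3.66 (SE 0.30) and Ciita by 4.08 (SE 0.19). H2-DMa was the exception in size, at 0.47 (SE 0.10, adjusted p = 1.92e-05), with 28.3 ± 4.75 CPM in CON liver and 30.2 ± 1.68 in CON forebrain (n = 12 each). Scaled by library sizes alone, which moved the median of all genes from -0.26 to -0.81 and the share lower in liver to 67.1%, its value was -0.10 and no longer past the threshold, while the other 7 stayed higher in liver.

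H2-DMa thus had nearly the same CPM in all 4 organs, with 37.2 in CON kidney and 31.8 in CON cerebellum, while its partner genes H2-DMb1 and H2-DMb2 were at 0.157 and 0.216 CPM in CON forebrain and 0.0949 and 0.0571 in CON cerebellum. H2-DMa overlaps Brd2, a widely expressed chromatin reader gene, on the opposite strand. Brd2 averaged 120 CPM in CON liver, 174 in CON kidney, 170 in CON forebrain and 149 in CON cerebellum. The counting used strand, and what part of H2-DMa counts came from the Brd2 locus was not tested. Ciita overlaps Dexi in the same way, and Dexi averaged 19.3 CPM in CON kidney, 40.0 in CON liver, 43.3 in CON forebrain and 64.5 in CON cerebellum.

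Between kidney and liver, where 68.6% of all tested genes differed, 46.1% of them lower in kidney (24.5% with library sizes alone), 5 of the 8 genes were past the threshold in edgeR. H2-DMb2 was higher in kidney by 1.53 (SE 0.25, adjusted p = 3.95e-07) and H2-DMb1 by 0.86 (SE 0.21, adjusted p = 0.000409). H2-Aa, H2-Eb1 and Ciita were lower in kidney, with -0.63 (SE 0.19), -0.57 (SE 0.18) and -0.37 (SE 0.16). Ciita lost the call in 14 of 24 fits that left out 1 library and with no filter on low counts (adjusted p = 0.0694). H2-Ab1 (0.22, SE 0.17), Cd74 (0.05, SE 0.14) and H2-DMa (-0.12, SE 0.10) were not past it. The direction of the smaller values depended on scaling: with library sizes alone, the median of all genes moved from 0.05 to 0.55, H2-Aa, H2-Eb1 and Ciita lost the call at -0.11, -0.05 and 0.14, and H2-Ab1, Cd74 and H2-DMa were called higher in kidney at 0.73, 0.57 and 0.39. H2-DMb1 and H2-DMb2 were higher in kidney under both scalings. The fit took kidney and liver libraries as independent. Over the 12 pairs of CON libraries with the same time and replicate number, the mean log2 level of the 8 genes correlated at r = 0.94. This matching was not used, so the standard errors do not measure the spread of differences within pairs.

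Between forebrain and cerebellum, where 70.3% of all tested genes differed, 3 of the 8 genes were past the threshold in edgeR. H2-DMb2 was higher in forebrain by 2.04 (SE 0.46, adjusted p = 0.000122), from counts of 3 to 11 per CON forebrain and 0 to 4 per CON cerebellum. Ciita was lower in forebrain, with -0.98 (SE 0.18, adjusted p = 6.05e-06). H2-DMb1 was at 0.86 (SE 0.38, adjusted p = 0.0392), a call lost with library sizes alone (adjusted p = 0.089) and when any 1 of 10 single libraries was left out, cerebellum CON CT8 replicate 1 among them (adjusted p = 0.0813). Without that library H2-DMa was also called (adjusted p = 0.0168).

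**Figure D2:**
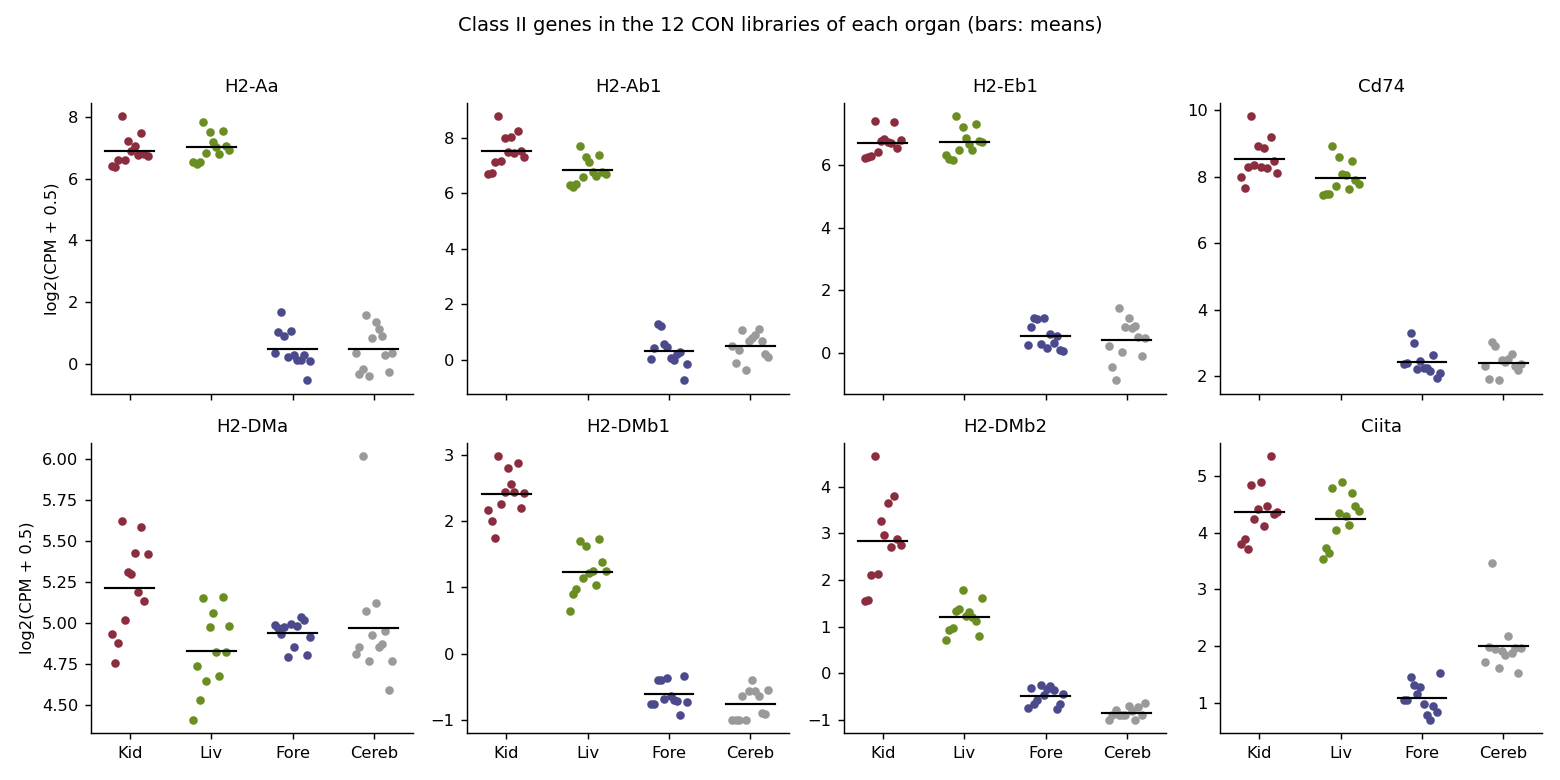
CPM of each gene in the 12 CON libraries of each organ (log axis), 1 point per library with a bar at the mean. Kidney and liver lie far above forebrain and cerebellum for 7 genes, while H2-DMa has means of 28.3 to 37.2 CPM in all 4 organs.

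Whether the genes changed over the day was tested within each arm across 6 times. In CON kidneys 0 of 8 genes were past the threshold in edgeR (adjusted p from 0.166 to 0.525), with 7 at an unadjusted p under 0.05 and 0 by DESeq2, where 3.47% of all tested genes were called. In CON livers 0 of 8 were past it (adjusted p from 0.301 to 0.726), with 0 at an unadjusted p under 0.05 and 0 by DESeq2, against 14.9% of all tested genes. Over all tested genes, edgeR gave an unadjusted p under 0.05 to 4120 of 21528 in CON kidneys and 6301 of 19708 in CON livers. DESeq2 called 2436 and 4915 genes. The lowest of the 6 time means was at CT4 for 8 of 8 genes in CON kidneys and 8 of 8 in CON livers. Cd74 in CON kidneys was at 253 and 202 CPM at CT4 and in CON livers at 172 and 176.

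The kidney result hung on CT8. Without CT8 CON replicate 1, 5 genes were called in CON kidneys (H2-Aa, H2-Ab1, H2-Eb1, Cd74 and H2-DMb2), and without CT8 CON replicate 2 it was 1 (H2-Eb1). In SD kidneys 7 of 8 and in SD livers 7 of 8 genes had their highest time mean at CT12, and 7 of 8 in each organ had their lowest at CT4. As in CON, these counts are over genes that moved together, with 2 libraries per mean. The shares of all genes with these times were not counted. Cd74 in SD livers was at 59.9 and 35.5 CPM at CT4 and at 163 and 150 at CT12. In SD kidneys it was at 127 and 108 CPM at CT4 and at 248 and 223 at CT12.

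By edgeR, 0 of 8 genes were past the threshold in SD kidneys (adjusted p from 0.359 to 0.860), with 0 at an unadjusted p under 0.05, and 0 of 8 in SD livers (adjusted p from 0.0850 to 0.714), with 4 at an unadjusted p under 0.05. DESeq2 called 4 genes in each organ, H2-Aa, H2-Ab1, H2-Eb1 and Cd74, so the call depended on the tool. Over all tested genes, edgeR called 3.79% in SD kidneys and 12.8% in SD livers. It gave an unadjusted p under 0.05 to 3996 of 21528 genes in SD kidneys and 6013 of 19708 in SD livers. DESeq2 called 1210 and 3190 genes. Whether the course differed between the arms was not tested.

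In CON forebrains 1 of 8 genes, H2-Ab1, was past the threshold in edgeR (adjusted p = 0.0376), where 0.624% of all tested genes were. Its libraries stood at 1.95 and 1.82 CPM at CT8 and at 0.0973 and 0.399 at CT24, with all other times between 0.499 and 0.990. H2-Aa followed with 2.68 and 1.40 CPM at CT8 and Cd74 with 9.32 and 7.49, and 6 of 8 genes had their highest CON mean at CT8. The share of all genes with their highest mean at CT8 was not counted. DESeq2 called Cd74 and gave H2-Ab1 no adjusted p, and the H2-Ab1 call was lost in 7 of 12 fits that left out 1 library and with a replicate block. In SD forebrains 0 of 8 were called by edgeR, with 1 at an unadjusted p under 0.05 and 0 by DESeq2, where 0% of all tested genes were called (2073 at an unadjusted p under 0.05 and 359 genes by DESeq2).

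In CON cerebella 1 of 6 tested genes, H2-DMa, was past the threshold in edgeR (adjusted p = 0.0342), against 10.3% of all tested genes. The call rested on the CT8 CON replicate 1 library that stood apart: H2-DMa was at 64.4 CPM there and at 23.5 to 34.2 in the other 23 cerebella, and without it the adjusted p was 0.453. Ciita in that library was at 10.5 CPM against 2.38 to 4.65 in the others, and H2-Eb1 at 0.0404 against 0.231 to 2.21. Both H2-DMa and Ciita overlap genes on the opposite strand. In SD cerebella 0 of 6 were called by edgeR, with 0 at an unadjusted p under 0.05 and 0 by DESeq2, where 0.045% of all tested genes were called.

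Liver and kidney libraries of the same arm, time and replicate number varied together. For each of the 12 groups, the mean log2 level of the 8 genes in replicate 1 was set against that in replicate 2. At CT8 CON the difference was -1.43 in the kidney and -1.04 in the liver, at CT20 CON -0.74 and -0.60, and at CT12 CON -0.52 and -0.57. These 3 groups, all CON, had the largest differences in both organs. Over all 12 groups the sign was the same in 8, and Pearson's r was 0.91 (0.94 over the 6 CON groups and 0.80 over the 6 SD groups).

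Single genes had r from 0.19 for H2-DMb2 to 0.89 for H2-Aa, with a median of 0.81. All 18506 genes tested in both organs had a median r of 0.146, with 5th and 95th percentiles of -0.398 and 0.626. The other 5 pairs of organs had r from -0.13 to 0.40 for the 8 genes. Leaving out 1 group at a time gave 0.855 to 0.927 for kidney and liver. These r are descriptions over 12 points, and the genes were selected on this co-variation. Whether a kidney and a liver with the same number came from the same mouse is not given for this experiment.

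**Figure D3:**
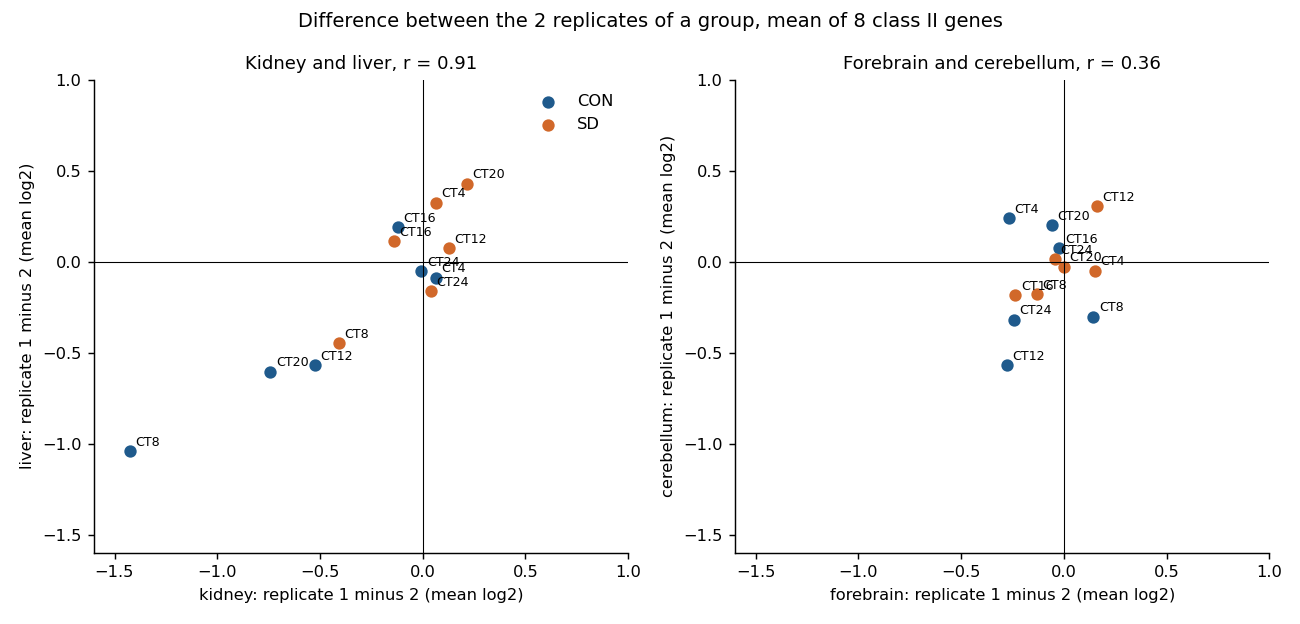
Replicate 1 minus replicate 2 in mean log2 level of the 8 genes, kidney on the x axis and liver on the y axis, 1 point per arm and time. The CON groups of CT8, CT20 and CT12 lie at the lower left, from -1.43 and -1.04 to -0.52 and -0.57, and the others lie nearer to 0.

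The high library in both organs at CT8 was CON replicate 2. Its class II sum was 1869 CPM in the kidney against 513 to 1332 in the other 11 CON kidneys, and 1169 CPM in the liver against 451 to 933 in the other 11 CON livers. Its macrophage and monocyte list summed to 385 CPM in the kidney (242 to 311 in the others) and 2180 in the liver (1184 to 1825), and its T and NK cell list to 40.0 (17.3 to 38.1) and 52.9 (29.1 to 45.8). Its interferon gamma list was within the range of the others, at 466 CPM in the kidney (245 to 701) and 875 in the liver (532 to 1297), and so were its dendritic cell list, at 49.0 (38.6 to 55.8) and 55.2 (35.9 to 74.3), and its B cell list, at 17.0 (13.0 to 19.0) and 39.0 (25.7 to 47.4). The part of these cell types in the class II values was not tested. Without this library the kidney log2 fold change of SD against CON was -1.88 for H2-DMb2 and -1.13 for Cd74, and that of liver Cd74 was -1.15.

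A list of other class II genes held genes of peptide loading, T cell costimulation and the promoter factors. For this list and those below, the shares of all tested genes called lower in SD were 2.12% in the kidney and 8.8% in the liver. In the kidney 3 of its 17 tested genes fell in SD and none rose (median log2 fold change -0.10): Cd86 (-0.42, SE 0.09), a ligand of CD28 on T cells, H2-Ob (-0.47, SE 0.12), a chain of the DM inhibitor DO, and Cd40 (-0.35, SE 0.08), the receptor for T cell help. In the liver 7 of 17 fell and 1 rose (median -0.11). H2-Eb2 was at -0.89 (SE 0.29), Cd40 at -0.77 (SE 0.21), the lysosomal thiol reductase Ifi30 at -0.60 (SE 0.11) and H2-Ob at -0.52 (SE 0.14), and the protease Ctsl rose by 0.19 (SE 0.06). With library sizes alone, 1 of 17 fell in the kidney, where Cd40 and H2-Ob lost the call, and 9 of 17 in the liver, where Ctsl was at 0.06 and not past the threshold. No tested subunit of RFX or NF-Y, nor Creb1, was past the threshold in either organ, except with library sizes alone, where Nfya (-0.24) and Nfyb (-0.19) were called in the liver. Ctss, a cathepsin that trims the invariant chain, had 0 to 2 counts per library and H2-Ea-ps had 0 in every library. Neither could be compared between the arms.

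Many but not all markers of cells that carry class II were lower in the same organs. In the kidney 4 of 9 dendritic cell genes fell (median -0.47), with Xcr1 at -0.84 (SE 0.14) and Itgax at -0.65 (SE 0.14), and 9 of 12 tested macrophage and monocyte genes fell (median -0.50), with Ly6c2 at -0.96 (SE 0.15) and the pan-leukocyte gene Ptprc at -0.56 (SE 0.07). In the liver 5 of 9 dendritic cell genes fell (median -0.56), with Xcr1 at -1.14 (SE 0.15) and Itgax at -0.93 (SE 0.11), and 14 of 15 macrophage and monocyte genes fell (median -0.44), with Ccr2 at -1.03 (SE 0.11) and Adgre1 at -0.62 (SE 0.12). None of these genes rose. The dendritic cell genes Zbtb46 (-0.04 in the kidney and -0.03 in the liver), Cd209a (-0.21 and -0.10) and Clec10a (-0.43 and -0.07) were not past the threshold in either organ. Nor was the macrophage gene Csf1r in the kidney (-0.05). Summed, the macrophage and monocyte list ran from 242 to 385 CPM in CON and 186 to 248 in SD kidneys, and from 1184 to 2180 and 792 to 1278 in livers. The dendritic cell list ran from 38.6 to 55.8 CPM and 36.3 to 45.1 in kidneys and from 35.9 to 74.3 and 25.5 to 70.1 in livers. Cd68, a macrophage marker, was at 0 counts in every library.

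B cell genes fell in 1 of 10 cases in the kidney (Ighm, -0.46, SE 0.09) and in 8 of 10 in the liver, with Ighm at -0.69 (SE 0.12) and Ms4a1 at -0.57 (SE 0.15). Whether the 2 organs differed in this was not tested. The B cell list summed to 13.0 to 19.0 CPM in CON and 9.13 to 16.2 in SD kidneys, and to 25.7 to 47.4 and 12.6 to 35.3 in livers. Genes of T and NK cells, which carry little class II in mice, fell in 6 of 12 cases in the kidney (median -0.64; Gzma -1.13, SE 0.23) and 9 of 12 in the liver (median -0.70; Gzma -1.36, SE 0.19). Their list ran from 17.3 to 40.0 CPM in CON and 14.2 to 25.3 in SD kidneys, and from 29.1 to 52.9 and 12.6 to 27.3 in livers. With library sizes alone the T and NK counts were 4 and 10 of 12. Of 6 microglia genes 1 fell in each organ (3 in the liver with library sizes alone), Cx3cr1 (-0.37, SE 0.08 in the kidney and -0.60, SE 0.12 in the liver), which peripheral monocytes share. The parts of these cell types in the class II difference were not tested.

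Genes of the interferon gamma response fell in 15 of 17 cases in the kidney (median -0.93) and 17 of 17 in the liver (median -0.73). The GTPase genes Igtp and Iigp1 were at -1.41 (SE 0.16) and -1.42 (SE 0.19) in the kidney, and the chemokine gene Cxcl10 was at -1.17 (SE 0.15). B2m, the light chain of class I, was at -1.09 (SE 0.20) but was hardly counted, with 0.650 CPM in CON and 0.304 in SD kidneys. In the liver, Gbp4 was at -1.18 (SE 0.13) and Igtp at -1.05 (SE 0.18). In the kidney, the chemokine gene Cxcl9 (-0.81, SE 0.22) was not past the threshold. Summed, this list ran from 245 to 701 CPM in CON and 158 to 287 in SD kidneys, and from 532 to 1297 and 348 to 564 in livers. In the forebrain 2 of 13 tested genes of this list fell, where 0.0303% of all tested genes were called lower. The 13 had a median of -0.46 and a highest value of -0.12. In the cerebellum none of these lists had a gene past the threshold, where 0% of all tested genes were called lower. The 15 tested interferon gamma genes there had a median of -0.34 and a highest value of -0.11. The part of this list in the class II difference was not tested.

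Of the organ markers, 0 of 6 kidney genes changed in the kidney and 4 of 6 liver genes rose in the liver (median of the 6 at 0.26), or 1 of 6 with library sizes alone (median 0.12). The other cell type lists and the interferon gamma list changed by at most 1 called gene under that scaling.

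**Figure D4:**
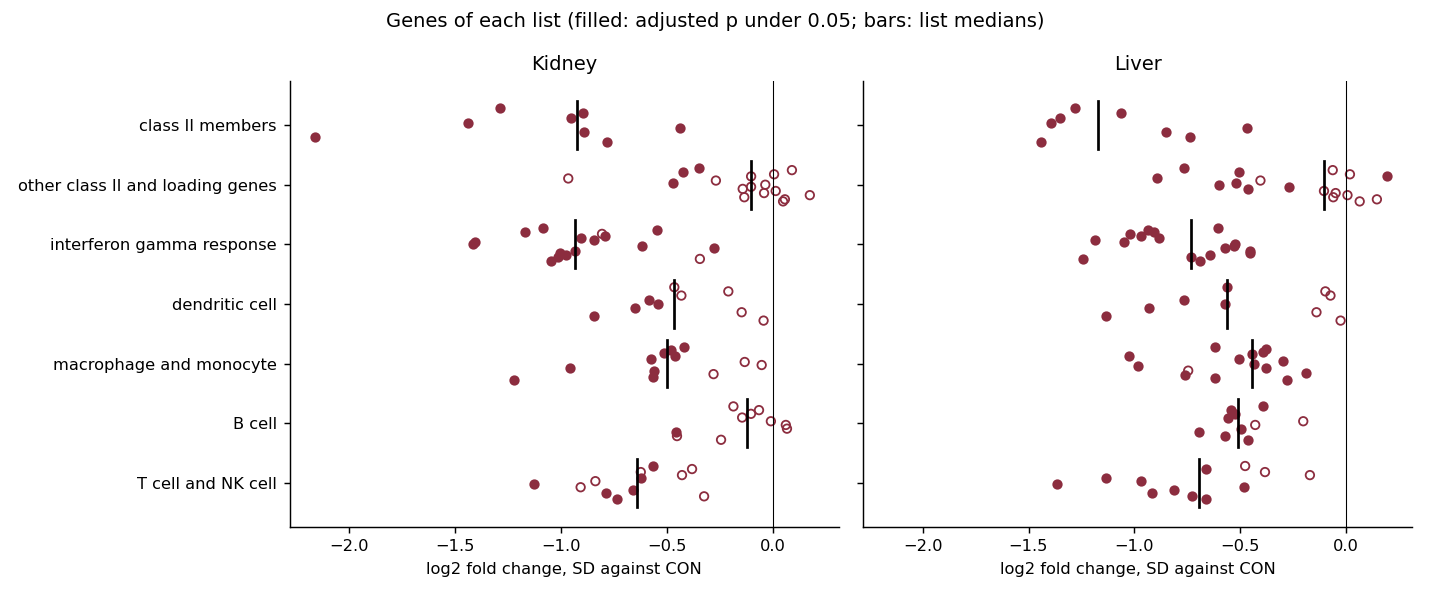
Log2 fold change of SD against CON averaged over times for each tested gene of the class II genes, the other loading genes, the immune cell lists and the interferon gamma list, in kidney and liver. Points past the threshold are filled, and a bar marks the list's median, which is -0.93 and -1.17 for the 8 class II genes.

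The genes whose level was most like the mean of the 8 were found by Pearson's r over the 24 libraries of an organ, both arms together. In the kidney they were the class I genes H2-D1 (r = 0.956), H2-K1 (0.952) and H2-T23 (0.947), followed by Cxcl10 (0.945), 2 predicted genes of chromosome 17, Tcof1 (0.936), Pigr (0.933), Dnase1l3 (0.930) and Psmb8 (0.930). In the liver they were Tcof1 (0.971), Laptm5 (0.966), Pld4 (0.962), Mpeg1 (0.959), Nckap1l (0.958), Arhgdib (0.957), Myo1g (0.955), Coro1a (0.955), Csf1r (0.954) and Hk2 (0.953). Each of the 8 correlated with the mean of the other 7 at 0.907 (Ciita) to 0.984 (H2-Ab1) in the kidney and at 0.834 (H2-DMb2) to 0.994 (H2-Aa) in the liver. All these values include the difference between arms.

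Tcof1, the gene of the nucleolar factor treacle, was in both lists. It lies on the minus strand of chromosome 18 from 60813755 to 60848971, its 3′ end 1102 bases beyond the end of Cd74 on the plus strand. Tcof1 averaged 57.0 ± 18.9 CPM over CON kidneys, 35.8 ± 5.87 over SD kidneys, 35.4 ± 11.3 over CON livers and 18.8 ± 4.36 over SD livers (n = 12 each). What part of its counts came from the Cd74 locus was not tested.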

How the data were processed

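Total RNA depleted of ribosomal RNA was made into stranded libraries. Per the labels and the methods of the study, the authors trimmed reads with Trim Galore, aligned them to GRCm38 with HISAT2, kept alignments of mapping quality 60 with SAMtools and counted reads per gene by strand with featureCounts. The deposited values are raw counts. Symbols came from GENCODE M21 (49326 of 49585 Ensembl features), and the count columns of 96 of 96 libraries equalled their own files.

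Groups came from the sample titles. CPM is the count over the library total; log2 levels used log2(CPM + 0.5). edgeR 4.0.16 (R 4.3.3) was run per organ on 12 groups of arm and time after filterByExpr, with TMM scaling and the quasi-likelihood F-test, and across organs on CON libraries. Benjamini-Hochberg adjustment was over all genes tested, with a threshold of 0.05. DESeq2 1.42.0, other scalings, no filter, cosine terms, a replicate block and leaving out each library were alternatives. The fit was tested on simulated data. The study calls the 2 replicates biological, and the labels do not say that they came from separate animals, so p-values measure the spread between these samples.

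Genes named were the 8 members, up to 4 called genes per list with the largest change and the 10 most alike genes per organ, predicted genes not named and 1 list gene not reported here; others were named after their values were seen. The members and lists were chosen with earlier results of these data known. Replicate numbers were not shown to pair CON and SD libraries. Depth was 24.8 to 58.5 M counts; python 3.11.15, NumPy 2.4.6 and pandas 2.3.3 handled the tables.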

Additional observations from a re-analysis of the deposited data

How the results depend on the processing

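A fit on the 14 kidney libraries with agreeing labels, 12 CON and 2 SD, was added after the data were seen. For SD against CON, the contrast that chose the genes, it called 0 of the 8 genes in place of 8. Both SD libraries were of CT24, so it compared the arms at that time only. Its log2 fold changes ran from -0.47 to -1.80. The time-of-day counts depended on the settings. With no filter on low counts, 7 genes in CON kidneys, 5 in CON livers, 3 in CON forebrains, 3 in CON cerebella, 5 in SD kidneys and 5 in SD livers were called. DESeq2 called 4 in SD kidneys, 4 in SD livers and 0 in CON cerebella, and cosine and sine terms gave 0 in CON forebrains and 0 in CON cerebella. Leaving out 1 library gave 0 to 5 in CON kidneys, 0 to 1 in CON forebrains and 0 to 3 in CON cerebella, the 3 without CT8 replicate 2. With the replicate number as a block, CON forebrains went from 1 to 0, and no other count of called members changed; the numbers were not shown to pair libraries, since same-numbered CON and SD deviations correlated above 0.1 at 4, 2, 2 and 3 of 6 times. Between kidney and liver in CON, 5 genes were called and 4 to 5 with 1 library left out. In the cerebellum, leaving out 1 library moved H2-Eb1 from -0.29 to 0.17 (highest without CON CT8 replicate 2) and Ciita from -0.11 to 0.14 (highest without CON CT8 replicate 1). The cause was not tested.

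Over all genes, time of day in CON called 746 genes in the kidney, 3680 with no filter and 2436 by DESeq2; 2929, 5202 and 4915 in the liver; 144, 2161 and 1699 in the forebrain (257 with library sizes alone, 367 with cosine and sine terms, 0 with the replicate block); and for the cerebellum 2297 and 5172 with no filter (57 with cosine and sine terms), 46 without CT8 replicate 1 and 11365 without CT8 replicate 2. In SD it was 816 and 3029 with no filter in the kidney, 2524 and 4989 in the liver, while SD forebrains gave 0, 403 and by DESeq2 359 and SD cerebella 10, 1156 and 1013. SD against CON called 495 and 1043 with no filter in the kidney, and 7 and by DESeq2 17 for the forebrain. Counts of H2-DMb1 and H2-DMb2 in the brain, 0 to 15 per library, limit what could be seen there.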
